A study of Mus musculus with 656 samples.

Results

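The mouse genes Csf1, Csf2 and Csf3 encode the colony-stimulating factors M-CSF, GM-CSF and G-CSF, and they were followed here in 3T3 cells, an established embryonic fibroblast line, after an inflammatory stimulus. The 3 genes were chosen by symbol among the 22070 genes of the deposited count table. RNA was read by TagSeq, which sequences the poly-A end of transcripts, so that a transcript gives reads at its 3′ end and levels of different genes were compared as CPM (counts scaled to a common library total) with no length correction. The 164 libraries form 41 groups of 4. In 20 groups the stimulus label was IL-1β at 1 ng/ml and in 20 groups it was TNF-α at 10 ng/ml. Each of these sets crosses SC-514, which inhibits the kinase IKKβ, given 1 hour before the stimulus at 0, 25, 50 or 100 µM, with 15, 30, 60, 120 or 360 min of stimulus. The last group, called unstimulated here, had neither stimulus nor inhibitor and is labelled with time 0.

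Several features of the design bear on every value. All groups were grown in DMEM with bovine calf serum, and the vehicle at 0 µM is not stated. No group was labelled as given SC-514 alone, and no unstimulated group was labelled at a later time, so time in culture and stimulus cannot be told apart. The sample titles and the descriptions number the stimuli differently. The stimulus label, which goes with the descriptions, was followed, and since the column names of the 2 stimulus sets also differ, stimulus and library set cannot be told apart. If the numbers in the titles applied to the columns instead, the 2 stimulus sets would be exchanged and every difference of IL-1β over TNF-α would turn its sign. The column names of the unstimulated group carry a prefix that neither stimulus set has. Change over unstimulated and library set therefore cannot be told apart either. Whether the 4 libraries of each group stem from different cultures is not in the labels. The p-values therefore measure only how these libraries spread, which may be technical. In these bulk samples, fewer cells that express a gene and less RNA per cell cannot be told apart.

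Depth was 928906 to 2469454 counts in 162 libraries (median over all libraries, 1282459), where 3 counts equal 1.21 to 3.23 CPM. The other 2 libraries, 1 at 30 min under IL-1β with 50 µM and 1 at 120 min under TNF-α with 50 µM, held 12191 and 3839 counts. Means of their 2 groups are given without them, over 3 libraries. Of 246 pairs of libraries within groups, 0 were identical. The summed level of 10 fibroblast markers was 5946 to 8703 CPM with IL-1β, 5493 to 8297 CPM with TNF-α and 7391 to 7720 CPM in unstimulated libraries, and changes by dose stand beside the SC-514 results. The 10 macrophage and myeloid markers, Csf1r among them, summed to 11.3 to 59.9, 15.9 to 49.4 and 32.3 to 47.4 CPM in the same 3 sets. In the unstimulated group 2 of these 10 and 1 of the 10 fibroblast markers had no count. The median share of mitochondrial counts was 0.682% with IL-1β and 100 µM against 0.579% with IL-1β and 0 µM, and 0.667% with TNF-α and 100 µM against 0.638% with TNF-α and 0 µM. The library numbered 1 with IL-1β and 100 µM at 360 min had the most genes detected, 15303 against a median of 13643.5, and the highest level of all libraries for 8 of 20 markers of other cell types. The part of these differences in the results was not tested.

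Colony-stimulating factors are secreted cytokines named for the blood cell colonies they support in culture. M-CSF acts on monocytes and macrophages through the receptor kinase encoded by Csf1r, GM-CSF acts on granulocytes, macrophages and dendritic cells through the Csf2ra and Csf2rb chains, and G-CSF acts on neutrophils through Csf3r. Fibroblasts are a known source of all 3. Csf1 is made by many connective tissue cells at rest, whereas Csf2 and Csf3 are induced by inflammatory cytokines, with NF-κB, a factor that IKKβ releases from its inhibitor, known to bind their promoters and AU-rich elements in the 3′ untranslated region (3′ UTR) known to shorten the life of their mRNA.

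On GRCm38, Csf1 (ENSMUSG00000014599.10) lies at chr3:107741048-107760469 on the minus strand, Csf2 (ENSMUSG00000018916.5) at chr11:54247271-54249667 on the minus strand and Csf3 (ENSMUSG00000038067.2) at chr11:98701263-98703629 on the plus strand, all annotated as protein-coding in GENCODE. An annotated antisense gene, Gm12223, runs over Csf2 on the plus strand at chr11:54247600-54254495 and has no row in the count table. Its start lies outside the 3′ UTR of Csf2, which spans chr11:54247271-54247590. The AU-rich windows below are shown because 3′ end reads come from these UTRs and because the 3 genes differ in their density of the pentamer ATTTA, the core of AU-rich elements. Each is the 30-base window of the annotated 3′ UTR with the most ATTTA pentamers, read on the gene's own strand from GENCODE transcripts, with every ATTTA in capitals.
Csf2, chr11:54247329-54247358, minus strand: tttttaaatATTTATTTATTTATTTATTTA
Csf3, chr11:98702984-98703013, plus strand: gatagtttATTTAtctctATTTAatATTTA
Csf1, chr3:107741109-107741138, minus strand: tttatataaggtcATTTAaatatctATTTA

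The Csf2 window holds 5 overlapping pentamers in an unbroken run, the Csf3 window 3 separate ones and the Csf1 window 2. Over the whole 320-base 3′ UTR of Csf2 there were 9 ATTTA and 9 TATTTAT matches, overlaps counted. Only 0.0138% of 21716 genes held as many ATTTA in the last 320 bases of their 3′ UTR. The 672-base 3′ UTR of Csf3 held 6 ATTTA and 2 TATTTAT, and 1.05% of 20914 genes held as many ATTTA in a stretch of that length. The long 3′ UTR of Csf1, of 2098 bases, held 4 ATTTA and 1 TATTTAT, a count reached by 36.6% of 13670 genes, and the alternative Csf1 3′ UTR of 246 bases held 0. These matches describe the letters and were not measured as sites of decay.

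A promoter window from RefSeq (GRCm38.p6, 250 bases before to 50 after the annotated start) was at hand for Csf1 and Csf2. It is printed for Csf1 because it holds the single match found to the NF-κB consensus. The match, in capitals, lies on the opposite strand at window bases 97 to 106, and its first base is 154 bases before the RefSeq start.
Csf1, chr3:107760420-107760719, minus strand: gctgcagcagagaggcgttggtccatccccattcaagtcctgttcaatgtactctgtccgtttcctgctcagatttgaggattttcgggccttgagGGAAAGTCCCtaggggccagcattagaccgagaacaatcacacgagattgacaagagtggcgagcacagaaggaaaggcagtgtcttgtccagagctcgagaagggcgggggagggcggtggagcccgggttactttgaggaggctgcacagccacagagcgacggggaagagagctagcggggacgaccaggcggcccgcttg

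Both strands were searched for the NF-κB consensus and for the AP-1 motif TGANTCA. Of 32817 promoter windows, 4.50% held the NF-κB consensus and 7.81% the AP-1 motif. The Csf1 window had no AP-1 match. The Csf2 window, chr11:54249850-54250149, had neither motif, but it ends 183 bases upstream of the start that GENCODE gives for Csf2, so the bases next to that start were not searched.

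The 3 genes differed in resting level, in size of response and in timing. Csf1 was abundant at rest and its group means spanned 369 to 1099 CPM, highest at 120 min. Csf2 was near the detection limit at rest, with group means of 1.02 to 236 CPM, highest at 60 min. Csf3 group means ran from 0 to 24.6 CPM, with both 60 and 120 min high under TNF-α. In unstimulated cells Csf1 stood at 363, 375, 366 and 373 CPM, Csf2 at 0.74, 1.70, 0.844 and 0.80 CPM (5 counts in all) and Csf3 at 0.74, 0, 0 and 0 CPM (1 count in all).

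**Figure D1:**
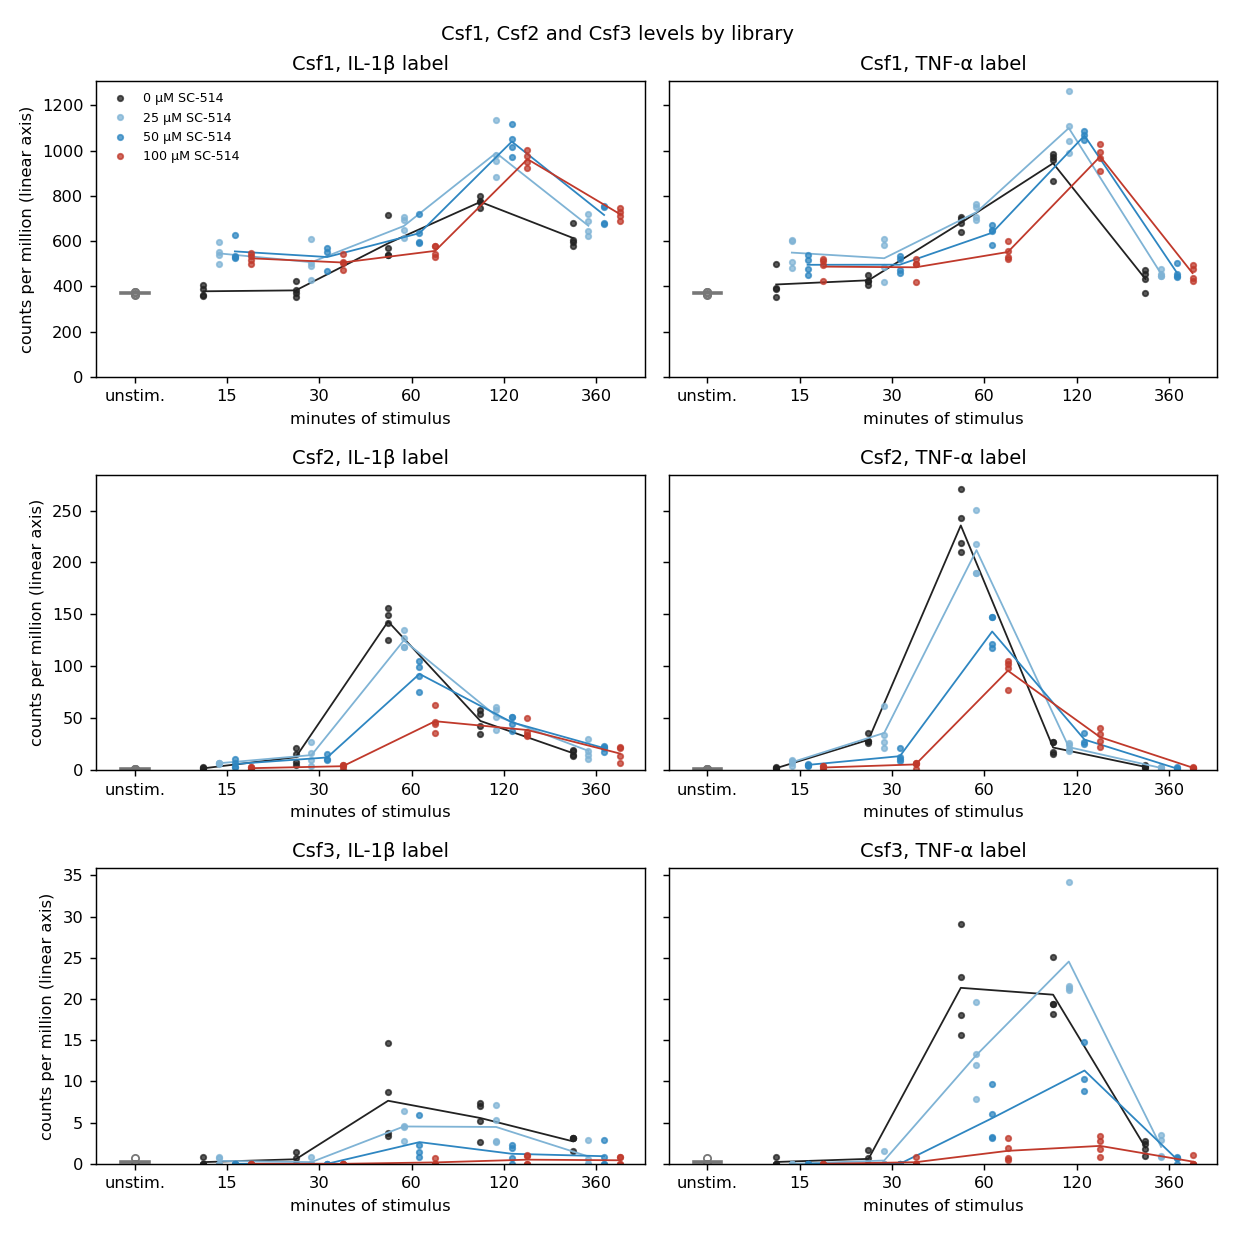
Levels of Csf1 (top), Csf2 (middle) and Csf3 (bottom) in CPM on linear axes that start at 0, by minutes of stimulus (evenly spaced), for the IL-1β (left) and TNF-α (right) labels. Points are libraries, lines join group means, colours give the SC-514 dose, grey open points are the unstimulated libraries repeated in both columns, and the 2 shallow libraries are left out; Csf2 means at 60 min without inhibitor are 143 CPM with IL-1β and 236 CPM with TNF-α.

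The response to each stimulus was set against the unstimulated group at each time, with edgeR's quasi-likelihood test over 10766 genes and Benjamini-Hochberg adjustment, and a gene was called at an adjusted p under 0.05. No member was called at 15 min under either stimulus, where 0.121% of tested genes were called higher with IL-1β and 0.0836% under TNF-α. At an unadjusted p under 0.05 the counts were 0 members with IL-1β and 1, Csf1, with TNF-α, and DESeq2 called 0 under each. Csf2 was called first, at 30 min, among 0.725% of genes called higher with IL-1β and 0.557% under TNF-α. All 3 were called higher at 60 min, against 2.74% of genes with IL-1β and 4.15% under TNF-α, and again at 120 min, against 8.17% with IL-1β and 9.14% under TNF-α. At 360 min all 3 were still called higher with IL-1β, against 12.3% of genes, and only Csf1 was with TNF-α, against 3.62% of genes. Both sets were compared with the same 4 unstimulated libraries. At 360 min with IL-1β, 6 of 9 tested fibroblast markers were called lower and 1 higher. Of all 10766 tested genes, 1012 were called lower and 1320 higher there. The summed level of the markers was 6132 to 6572 CPM against 7391 to 7720 CPM in unstimulated libraries, and their part in the result was not tested. Csf2 and Csf3 passed the filter on low counts only through stimulated groups, so that a count of called members carries no weight beyond the values themselves.

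Csf2, which encodes GM-CSF, was at the detection limit at rest and peaked at 60 min under both stimuli. With IL-1β its 4 libraries held 2.80, 2.55, 0 and 2.43 CPM at 15 min, 15.9, 21.4, 8.38 and 4.97 CPM at 30 min, 142, 126, 156 and 149 CPM at 60 min, 58.0, 34.6, 54.3 and 43.1 CPM at 120 min, and 14.8, 19.2, 19.0 and 13.4 CPM at 360 min. With TNF-α they held 3.15, 0, 2.64 and 2.46 CPM at 15 min, 25.9, 28.2, 28.0 and 35.5 CPM at 30 min, 242, 219, 210.1 and 271 CPM at 60 min, 27.2, 17.5, 27.5 and 15.6 CPM at 120 min, and 4.70, 3.88, 2.78 and 1.83 CPM at 360 min. Every library from 30 min on lay above every unstimulated library, and at 15 min the groups overlapped. The log2 change over unstimulated at 60 min was 7.06 ± 0.87 (SE) with IL-1β (adjusted p = 6.02e-36, edgeR) and 7.83 ± 0.87 with TNF-α (adjusted p = 1.63e-43), where the SE includes the 5 counts of the unstimulated group. At 30 min it was 3.56 ± 0.90 with IL-1β (adjusted p = 4.03e-05) and 4.78 ± 0.88 with TNF-α (adjusted p = 4.41e-13). At 360 min with TNF-α the change of 1.70 ± 1.00 missed the threshold (adjusted p = 0.301), although no library of that group overlapped the unstimulated ones.

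Csf3, which encodes G-CSF, was called later than Csf2. It had 1 and 3 counts in all at 15 and 30 min with IL-1β, and the same numbers with TNF-α, at or under the limit of 3 counts used here. With IL-1β it stood at 14.7, 3.77, 3.36 and 8.77 CPM at 60 min, 7.33, 5.22, 7.05 and 2.61 CPM at 120 min, and 3.11, 3.07, 1.58 and 3.15 CPM at 360 min. With TNF-α it stood at 29.1, 22.7, 18.0 and 15.6 CPM at 60 min, 25.1, 19.4, 19.4 and 18.2 CPM at 120 min, and 2.35, 0.97, 1.86 and 2.74 CPM at 360 min. All of these libraries lay above the highest unstimulated library, and at 60 min with IL-1β the highest of the 4 was several times the lowest. Against the single unstimulated count the ratio at 60 min was 38.5 with IL-1β (95% interval 6.58 to 1550.1, exact, counting error only) and 108 with TNF-α (95% interval 19.0 to 4313). The adjusted p was 1.78e-06 for IL-1β and 4.52e-15 for TNF-α at 60 min, 4.41e-05 and 7.83e-15 in the same order at 120 min, and 0.00893 and 0.117 at 360 min. The IL-1β call at 360 min was lost when the libraries numbered 4 were left out of every group (adjusted p = 0.0589).

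Csf1, which encodes M-CSF, was high at rest and was first called at 60 min. With IL-1β its libraries held 389, 363, 356 and 405 CPM at 15 min, 383, 422, 373 and 351 CPM at 30 min, 715, 568, 539 and 538 CPM at 60 min, 798, 777, 746 and 772 CPM at 120 min, and 679.8, 577, 595 and 605 CPM at 360 min. With TNF-α they held 353, 386, 393 and 501 CPM at 15 min, 422, 426, 408 and 451 CPM at 30 min, 706, 699.6, 639 and 679 CPM at 60 min, 866, 957, 983 and 970.0 CPM at 120 min, and 433, 371, 455 and 471 CPM at 360 min. At 60 and 120 min no stimulated library overlapped the unstimulated ones, and at 360 min those with TNF-α did. The TNF-α libraries at 30 min also lay above the unstimulated ones, but their log2 change of 0.24 ± 0.09 missed the threshold (adjusted p = 0.255, edgeR). The log2 change over unstimulated was 0.71 ± 0.09 at 60 min, 1.13 ± 0.09 at 120 min and 0.83 ± 0.09 at 360 min with IL-1β (adjusted p = 3.52e-11, 3.68e-23 and 1.77e-14, edgeR). With TNF-α it was 0.98 ± 0.09 at 60 min, 1.44 ± 0.09 at 120 min and 0.29 ± 0.09 at 360 min (adjusted p = 1.72e-18, 1.33e-31 and 0.0381). The TNF-α call at 360 min was lost with RLE scaling (adjusted p = 0.115), with DESeq2 (adjusted p = 0.177) and without the libraries numbered 1, 3 or 4 (adjusted p = 0.116, 0.253 and 0.257).

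From 120 to 360 min Csf1 and Csf2 fell under both labels and Csf3 under the TNF-α label. From the test of 360 against 120 min, the log2 change of Csf1 was -0.31 ± 0.08 with IL-1β (adjusted p = 0.00611) and -1.16 ± 0.09 with TNF-α (adjusted p = 9.54e-24). For Csf2 it was -1.48 ± 0.27 with IL-1β (adjusted p = 3.57e-06) and -2.74 ± 0.54 with TNF-α (adjusted p = 4.80e-07). For Csf3 it was -0.97 ± 0.54 with IL-1β (adjusted p = 0.265) and -3.34 ± 0.59 with TNF-α (adjusted p = 1.93e-09). In these 2 tests 5.04% of genes were called lower with IL-1β and 7.05% under TNF-α. The IL-1β call of Csf1 was lost without the libraries numbered 2 (log2 change -0.28, adjusted p = 0.0547). Whether the fall itself differed between the labels was not tested as such.

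The 2 stimulus labels were set against each other without inhibitor. Over the 5 times together all 3 genes differed, with adjusted p = 1.27e-08 for Csf1, 9.67e-11 for Csf2 and 1.16e-06 for Csf3 (edgeR F test), as did 9.56% of all genes. At 60 min Csf2 and Csf3 were lower with IL-1β, and at 360 min Csf1 and Csf2 were higher with IL-1β. The log2 difference at 60 min, IL-1β over TNF-α, was -0.78 ± 0.15 for Csf2 (adjusted p = 0.000367), -1.53 ± 0.34 for Csf3 (adjusted p = 0.00163) and -0.26 ± 0.08 for Csf1 (adjusted p = 0.117), where 1.12% of genes were called lower. At 360 min it was 0.54 ± 0.09 for Csf1 (adjusted p = 5.46e-07), 2.31 ± 0.55 for Csf2 (adjusted p = 0.000108) and 0.46 ± 0.71 for Csf3 (adjusted p = 0.781), where 5.81% of genes were called higher. For Csf2 the libraries of the 2 labels did not overlap at either time, and its mean with IL-1β was 60.8% of that with TNF-α at 60 min and 503% at 360 min. The Csf3 call at 60 min was lost without the libraries numbered 2 or 3 (adjusted p = 0.0709 and 0.0872), and Csf1 passed at 60 min without those numbered 1 (log2 difference -0.33, adjusted p = 0.0435).

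SC-514 at 100 µM lowered Csf3 and the early rise of Csf2 under both labels, with no call for Csf2 at 120 or 360 min, and moved Csf1 by small amounts in either direction. Csf2 was called lower at 30 and 60 min under both labels and at no other time. Csf3 was called lower at 60, 120 and 360 min under both labels. Csf1 was called lower at 60 min with TNF-α and higher at 15, 30 and 120 min with IL-1β. SC-514 moved a large part of all genes, so these calls stand against high backgrounds. With IL-1β, 13.5%, 12.5%, 14.4%, 16.2% and 15.7% of genes were called lower at 15, 30, 60, 120 and 360 min. The shares for TNF-α were 13.2%, 10.8%, 13.6%, 15.0% and 15.4% at the same times. The share called higher with IL-1β was 11.2% at 15 min, 10.0% at 30 min and 14.3% at 120 min.

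Fibroblast markers also moved with SC-514. Of 9 tested, the number called lower at 15, 30, 60, 120 and 360 min was 2, 2, 2, 1 and 2 with IL-1β and 5, 3, 5, 5 and 8 with TNF-α, and the number called higher was 1, 3, 2, 4 and 0 with IL-1β and 0, 1, 1, 1 and 0 with TNF-α. At 360 min their summed level was 6117 to 6860 CPM at 100 µM against 6132 to 6572 CPM at 0 µM with IL-1β, and 5493 to 5982 CPM at 100 µM against 6898 to 7268 CPM at 0 µM with TNF-α, where the doses did not overlap. The part of these shifts in the results on the 3 genes was not tested.

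For Csf2 at 60 min, the 4 libraries with 100 µM held 62.4, 46.1, 44.9 and 35.6 CPM with IL-1β, and those with 0 µM the 126 to 156 CPM given above. With TNF-α they held 106, 102, 98.9 and 77.2 CPM at 100 µM, against 210.1 to 271 CPM at 0 µM. The doses did not overlap under either label. The log2 change, 100 over 0 µM, was -1.63 ± 0.19 with IL-1β (adjusted p = 5.61e-13, edgeR) and -1.41 ± 0.16 with TNF-α (adjusted p = 3.59e-13). At 30 min Csf2 stood at 4.69, 1.74, 3.92 and 5.49 CPM with IL-1β and 100 µM, which overlapped the 0 µM libraries, and at 7.21, 1.54, 6.54 and 7.46 CPM with TNF-α and 100 µM, which did not. The log2 change at 30 min was -1.70 ± 0.53 with IL-1β (adjusted p = 0.00495) and -2.42 ± 0.41 with TNF-α (adjusted p = 3.75e-08). The IL-1β call at 30 min was lost without the libraries numbered 2 (log2 change -1.06, adjusted p = 0.147).

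At 120 min the Csf2 libraries of the 2 doses overlapped under both labels. With IL-1β it stood at 37.3, 50.1, 34.4 and 33.3 CPM at 100 µM against 34.6 to 58.0 CPM at 0 µM, a log2 change of -0.32 (95% interval -0.77 to 0.13, adjusted p = 0.296, edgeR). With TNF-α it stood at 28.5, 22.9, 40.9 and 35.2 CPM at 100 µM against 15.6 to 27.5 CPM at 0 µM, a log2 change of 0.44 (95% interval -0.06 to 0.94, adjusted p = 0.196). Without the libraries numbered 2, the IL-1β change was -0.61 and passed (adjusted p = 0.0467). At 360 min the means were 16.2 ± 7.11 CPM at 100 µM and 16.6 ± 2.95 CPM at 0 µM with IL-1β (SD, n = 4 each), and 2.61 ± 0.351 and 3.30 ± 1.26 CPM in the same order with TNF-α. With IL-1β and 100 µM the Csf2 means were 38.8 ± 7.73 CPM at 120 min and 47.2 ± 11.1 CPM at 60 min, and with IL-1β and 0 µM they were 47.5 ± 10.7 CPM at 120 min and 143 ± 13.0 CPM at 60 min (SD, n = 4 each).

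For Csf3 at 60 min, the libraries with 100 µM held 0.671, 0, 0 and 0 CPM with IL-1β, against 3.36 to 14.7 CPM at 0 µM, and 1.97, 3.16, 0.687 and 0.48 CPM with TNF-α, against 15.6 to 29.1 CPM at 0 µM. At 120 min they held 0, 0.928, 1.08 and 0 CPM with IL-1β, against 2.61 to 7.33 CPM, and 2.72, 1.81, 0.81 and 3.36 CPM with TNF-α, against 18.2 to 25.1 CPM. No library with 100 µM overlapped those with 0 µM at either time. The log2 change with TNF-α was -3.93 ± 0.59 at 60 min (adjusted p = 3.61e-13, edgeR) and -3.38 ± 0.48 at 120 min (adjusted p = 2.47e-12). With IL-1β, where 1 count remained at 60 min and 2 at 120 min, the ratio of 100 over 0 µM was 0.0265 (95% interval 0.000658 to 0.155, counting error only) at 60 min and 0.0921 (0.0107 to 0.360) at 120 min, with adjusted p = 5.79e-07 and 0.000582. At 360 min the Csf3 calls rested on 2 counts at 100 µM under each label, against 14 counts with IL-1β and 9 under TNF-α at 0 µM (adjusted p = 0.0294 and 0.0230). The IL-1β call was lost with DESeq2 (adjusted p = 0.0717) and without the libraries numbered 1 or 4 (adjusted p = 0.141 and 0.128), and the TNF-α call without those numbered 3 or 4 (adjusted p = 0.10 and 0.147).

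For Csf1 the early libraries with inhibitor were high. At 15 min with IL-1β they held 518, 547, 498 and 532 CPM at 100 µM, against 389, 363, 356 and 405 CPM at 0 µM, and at 30 min 504, 506, 470.3 and 541 CPM at 100 µM, against 351 to 422 CPM at 0 µM. At 120 min they held 949, 1001, 922 and 977 CPM at 100 µM, against 746 to 798 CPM at 0 µM. No 100 µM library overlapped the 0 µM ones at these 3 times. The log2 change with IL-1β was 0.41 ± 0.09 at 15 min (adjusted p = 0.000125, edgeR), 0.37 ± 0.09 at 30 min (adjusted p = 0.000644) and 0.28 ± 0.08 at 120 min (adjusted p = 0.00568). With TNF-α at 60 min Csf1 stood at 558, 602, 529 and 519 CPM at 100 µM, against 639 to 706 CPM at 0 µM, a log2 change of -0.41 ± 0.08 (adjusted p = 5.88e-05). With RLE scaling, which shifts the median gene by up to 0.125 on the log2 scale, Csf1 also passed as higher at 360 min with IL-1β (0.23, adjusted p = 0.0326, against 0.14 and 0.205 with TMM) and at 15 min with TNF-α (0.24, adjusted p = 0.0344, against 0.16 and 0.180), and in that last comparison also without the libraries numbered 4 (0.29, adjusted p = 0.0463).

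**Figure D2:**
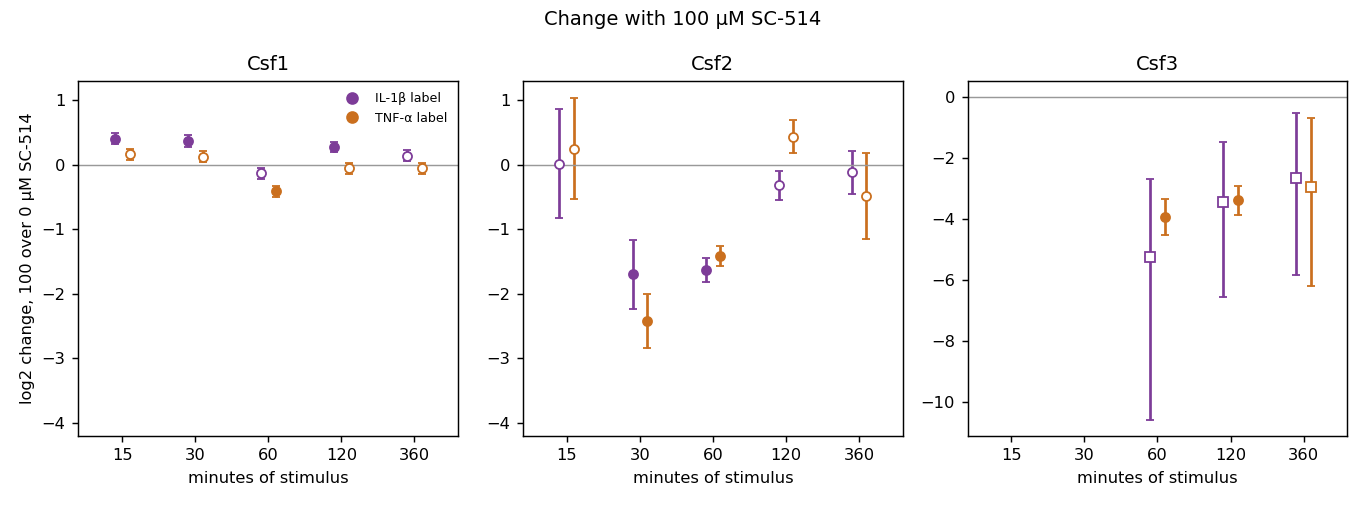
Log2 change of Csf1, Csf2 and Csf3 at 100 over 0 µM SC-514, by minutes of stimulus, for the IL-1β (purple) and TNF-α (orange) labels. Circles are fitted changes with SE, filled at an adjusted p under 0.05; squares, always open, are Csf3 count ratios with 95% counting intervals, where 1 group held 1 to 3 counts; Csf3 at 15 and 30 min is not drawn because both groups held 3 counts or fewer, and the Csf3 axis has its own range.

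The effect of 100 µM SC-514 was compared between the labels over the 5 times. Csf1 differed (adjusted p = 0.0155, edgeR F test), as did 4.68% of genes, whereas Csf2 (adjusted p = 0.598) and Csf3 (adjusted p = 0.971) did not pass. The Csf1 effect was higher with IL-1β than with TNF-α at every time, by 0.25 ± 0.12 at 15 min, 0.24 ± 0.12 at 30 min, 0.28 ± 0.12 at 60 min, 0.33 ± 0.12 at 120 min and 0.20 ± 0.12 at 360 min (log2, SE). The call was lost with RLE scaling (adjusted p = 0.0709) and without the libraries numbered 3 or 4 (adjusted p = 0.108 and 0.466). For Csf2 the same difference was -0.21 ± 0.25 at 60 min and -0.76 ± 0.34 at 120 min. Missing the threshold does not show that the effects were alike.

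Intermediate doses placed Csf2 and Csf3 in order at 60 min. With IL-1β, Csf2 averaged 143 ± 13.0, 125 ± 7.78, 92.8 ± 12.8 and 47.2 ± 11.1 CPM at 0, 25, 50 and 100 µM (SD, n = 4). Under TNF-α its averages were 236 ± 27.3, 212 ± 28.6, 134 ± 16.2 and 95.9 ± 12.7 CPM. Csf3 averaged 7.65 ± 5.30, 4.53 ± 1.52, 2.63 ± 2.27 and 0.168 ± 0.335 CPM with IL-1β at the same doses, and 21.4 ± 5.96, 13.2 ± 4.86, 5.54 ± 3.08 and 1.57 ± 1.25 CPM with TNF-α. Each mean was lower than that of the next lower dose, and the libraries of 25 and 0 µM overlapped for both genes under both labels. Those of 50 and 0 µM overlapped for Csf3 with IL-1β, but not for Csf3 with TNF-α or for Csf2 under either label. Csf1 averaged 590.0 ± 84.5, 667 ± 42.1, 635 ± 59.4 and 557 ± 24.1 CPM with IL-1β and 681 ± 30.2, 728 ± 35.2, 637 ± 37.6 and 552 ± 37.2 CPM with TNF-α, highest at 25 µM under both labels.

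At 120 min Csf3 was lower at 100 µM than at 0 µM with no overlap under both labels, whereas Csf2 overlapped between these doses. With TNF-α, Csf2 averaged 21.9 ± 6.30, 22.3 ± 3.39, 29.6 ± 5.42 and 31.9 ± 7.85 CPM at 0, 25, 50 and 100 µM, whereas Csf3 averaged 20.5 ± 3.09, 24.6 ± 6.44, 11.3 ± 3.14 and 2.17 ± 1.11 CPM (SD, n = 4, or 3 at 50 µM). The shallow library left out at 50 µM read 260.5 CPM for Csf2 from 1 count and 0 for Csf3, and with it those 2 means were 87.3 ± 116 and 8.49 ± 6.21 CPM. With IL-1β at 120 min Csf2 averaged 47.5 ± 10.7, 52.4 ± 9.68, 46.2 ± 6.60 and 38.8 ± 7.73 CPM, and Csf3 5.55 ± 2.17, 4.47 ± 2.18, 1.21 ± 1.03 and 0.501 ± 0.582 CPM. Csf1 with IL-1β averaged 773 ± 21.1, 989.6 ± 106, 1039.8 ± 62.4 and 962 ± 34.4 CPM at 120 min, so that each dose with inhibitor was above 0 µM with no overlap. With TNF-α Csf1 averaged 944 ± 52.8, 1099 ± 119, 1066 ± 19.7 and 974 ± 50.5 CPM. There 25 and 50 µM were above 0 µM with no overlap, and 100 µM overlapped 0 µM.

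**Figure D3:**
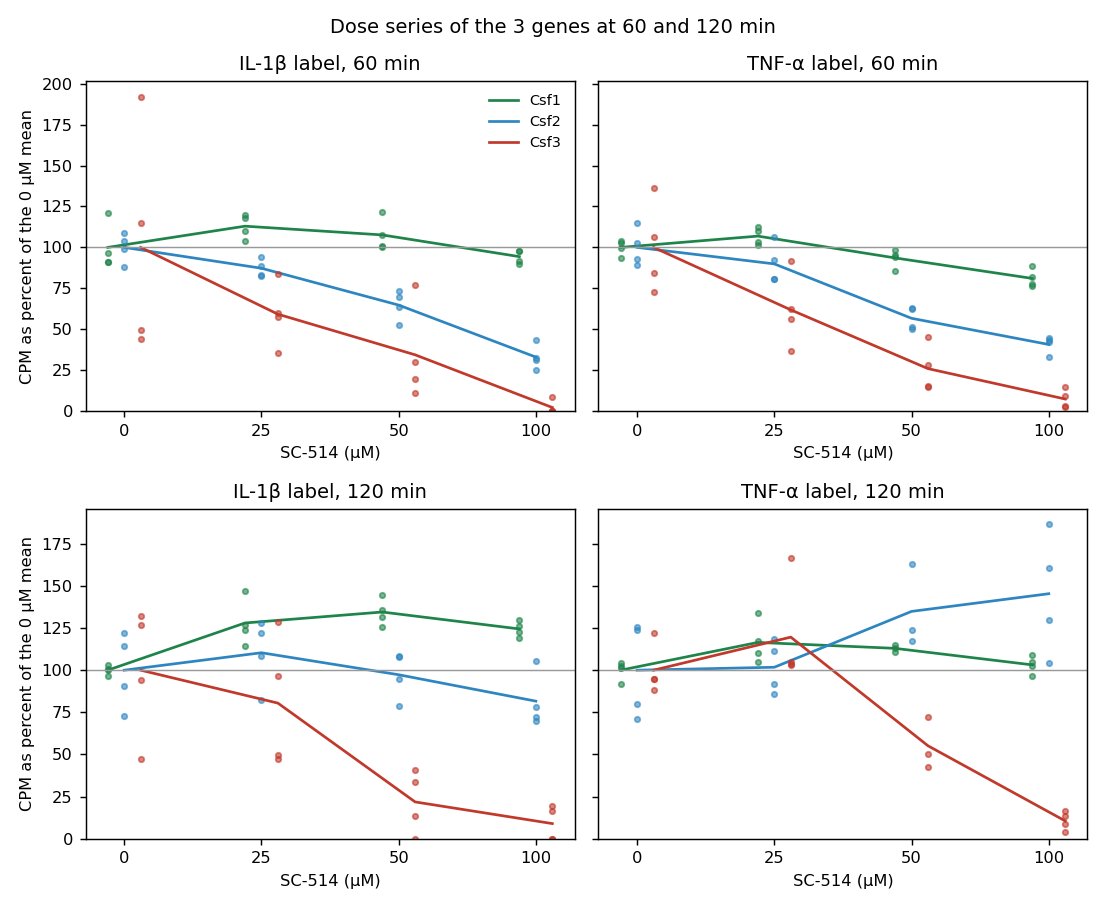
CPM of Csf1 (green), Csf2 (blue) and Csf3 (red) as percent of the mean at 0 µM, by SC-514 dose (doses evenly spaced), at 60 min (top) and 120 min (bottom), for the IL-1β (left) and TNF-α (right) labels. Points are libraries and lines join means, without the shallow library at 50 µM; at 100 µM Csf2 stands at 33.0% (IL-1β) and 40.7% (TNF-α) of its 0 µM mean at 60 min and at 81.6% and 145% at 120 min, while Csf3 stands at 2.19% and 7.37%, then 9.02% and 10.6%.

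Tested over the 5 times together, 25 µM against 0 µM was called for Csf1 with IL-1β (adjusted p = 1.11e-10, edgeR F test) and TNF-α (adjusted p = 2.14e-05), and not for Csf2 (adjusted p = 0.169 and 0.0955) or Csf3 (adjusted p = 0.216 and 0.347). At 50 µM all 3 were called, Csf1 with adjusted p = 6.24e-12 and 0.0365, Csf2 with 0.00356 and 1.18e-07, and Csf3 with 0.000298 and 1.01e-06 for IL-1β and TNF-α. The share of all genes called was 28.7% with IL-1β and 23.8% under TNF-α at 25 µM, and 40.0% with IL-1β and 35.9% under TNF-α at 50 µM. Without a filter on low counts Csf2 passed at 25 µM too (adjusted p = 0.0108 and 0.00235). The 50 µM call of Csf2 with IL-1β was lost without the libraries numbered 3 or 4 (adjusted p = 0.0664 and 0.0991), and that of Csf1 with TNF-α without those numbered 1, 2 or 3 (adjusted p = 0.0721, 0.130 and 0.300).

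At 15 min the Csf2 means were highest at 25 and 50 µM under both labels. With IL-1β it stood at 6.68, 6.92, 7.30 and 6.42 CPM at 25 µM and 3.31, 11.3, 3.18 and 6.57 CPM at 50 µM, above all 0 µM libraries (0 to 2.80 CPM), and at 0 to 3.60 CPM at 100 µM. With TNF-α it stood at 9.38, 7.30, 10.4 and 3.84 CPM at 25 µM and 5.23, 5.88, 5.42 and 4.21 CPM at 50 µM, again above all 0 µM libraries (0 to 3.15 CPM), and at 0 to 4.34 CPM at 100 µM. The groups held 38 counts at 25 µM under each label, against 10 counts at 0 µM. These values at a single time carry no test of their own. Csf1 at 15 min was above the 0 µM mean at 25 µM too, with 546 ± 39.7 against 378 ± 22.7 CPM under IL-1β and 549 ± 62.6 against 408 ± 64.2 CPM under TNF-α.

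With 100 µM SC-514 at 60 min, Csf2 and Csf1 were still above the unstimulated level. Against unstimulated cells, Csf2 was higher by 5.43 ± 0.88 on the log2 scale with IL-1β (adjusted p = 4.99e-19, edgeR) and by 6.42 ± 0.87 with TNF-α (adjusted p = 1.14e-29). Csf1 was higher by 0.58 ± 0.09 with IL-1β (adjusted p = 4.87e-08) and by 0.57 ± 0.09 with TNF-α (adjusted p = 6.78e-08). Csf3 held 1 count with IL-1β and 9 counts with TNF-α, against 1 count in unstimulated cells, and was not called (adjusted p = 0.998 and 0.120). In these tests 10.3% of genes were called higher with IL-1β and 10.8% under TNF-α. Since SC-514 is present on 1 side only and no group had SC-514 alone, stimulus and inhibitor cannot be told apart here.

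The 3 genes were also compared with each other inside each library, which removes the library total from the ratio. The log2 ratio of Csf3 over Csf2 (0.5 added to each count) averaged -5.93 ± 0.90 at 100 µM and -3.47 ± 0.45 at 0 µM with TNF-α at 60 min, and -3.83 ± 1.01 at 100 µM and -0.06 ± 0.32 at 0 µM with TNF-α at 120 min (SD, n = 4 each). The difference, 100 minus 0 µM, was -2.46 at 60 min and -3.77 at 120 min with TNF-α, with no overlap between the doses. Csf3 over Csf1 differed by -3.45 and -3.28 at these times, also with no overlap. With IL-1β and 100 µM, 3 of 4 libraries at 60 min and 2 of 4 at 120 min had 0 counts of Csf3, so the size of those Csf3 ratios is set by the 0.5 added and is not given. With that addition, or with 1 added, their means were lower at 100 µM than at 0 µM at both times. Csf2 over Csf1 differed by -1.54 with IL-1β and -0.99 under TNF-α at 60 min, with no overlap, and by -0.59 and 0.49 at 120 min, with overlap. In the exact two-sided permutation test, p was 0.0286 (with 0.5 added) for each of the 10 differences without overlap, the smallest that 4 against 4 libraries can give, and 0.0571 and 0.171 for the other 2. Adjusted over these 12 tests, which were added after the levels had been seen, the values were 0.0343, 0.0623 and 0.171.

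**Figure D4:**
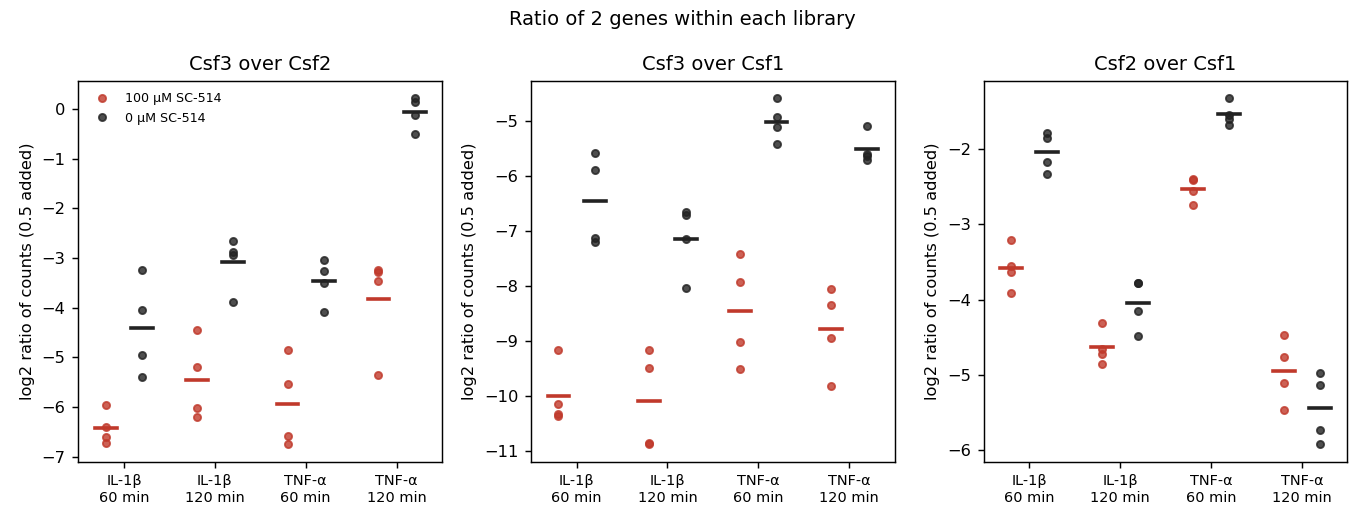
Log2 ratio of counts of 2 genes within each library (0.5 added to each count) at 100 µM (red, left of each pair) and 0 µM (black) SC-514, by stimulus label and time. Points are the 4 libraries of a group and bars their means; the doses do not overlap for Csf3 over Csf2 or Csf3 over Csf1, and for Csf2 over Csf1 they do not overlap at 60 min. With IL-1β and 100 µM, Csf3 had 0 counts in 3 libraries at 60 min and 2 at 120 min, whose points are set by the 0.5 added.

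The 41 groups were also ranked by mean. Neighbours in such an order lie close by construction, and groups of Csf3 with a mean of 0 overlap of necessity. Their overlap therefore only describes the ranking, and it was not set against other genes. For Csf1 the 8 highest groups were the 8 at 120 min, and 39 of the 40 neighbouring pairs in the order overlapped. For Csf2 the 7 highest were groups at 60 min, led by TNF-α with 0 µM, and 37 of 40 neighbouring pairs overlapped. For Csf3 the highest was TNF-α with 25 µM at 120 min, at 24.6 ± 6.44 CPM, followed by TNF-α with 0 µM at 60 and 120 min, and all 40 neighbouring pairs overlapped. The unstimulated group was the lowest of all for Csf1 and Csf2.

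Each gene's closest companions over the 41 group means (Pearson's r of mean log2(CPM + 1), 10761 genes ranked, groups shared by all genes) differed. For Csf1 they were Nfe2l2 at 0.90, which encodes a factor of the oxidative stress response, Rela at 0.89, which encodes the NF-κB subunit p65, Sqstm1 at 0.87, Btg1 at 0.87 and the receptor gene Tlr2 at 0.86. For Csf2 they were Tnfaip3 at 0.95 and Nfkbia at 0.95, both encoding inhibitors of NF-κB signalling, Adm at 0.91, Ptgs2 at 0.91, which encodes cyclooxygenase-2, and Lif at 0.90. For Csf3 they were the cytokine genes Il23a at 0.94 and Il1a at 0.89, the proteoglycan gene Sdc4 at 0.92, Nlrp3 at 0.87 and Il6 at 0.86. No member was in the top 5 of another, and r was 0.60 for Csf1 with Csf2, 0.60 for Csf1 with Csf3 and 0.65 for Csf2 with Csf3. Among the 10761 genes they still ranked high for each other. Csf2 came 136th and Csf3 137th for Csf1, Csf3 61st and Csf1 75th for Csf2, and Csf2 74th and Csf1 109th for Csf3. These ranks include the 2 shallow libraries. Without them, 2 of the 5 genes named for Csf1 stayed among its nearest 5, Tlr2 first at 0.94 and Nfe2l2 next at 0.93, while Rela came 10th, Btg1 17th and Sqstm1 22nd. For Csf2 4 of the 5 stayed and for Csf3 3 of the 5, with the nearest gene of each as before. The ranks of the members for each other then ran from 82 to 294.

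The receptors for the 3 factors were low in these cells. Of 5 receptor genes, only Csf2rb, the shared signalling chain for GM-CSF, passed the filter. It did not pass the test at 60 min with IL-1β (13.8 ± 3.51 CPM) or TNF-α (11.0 ± 1.92 CPM) against unstimulated cells (13.7 ± 4.05 CPM, SD, n = 4 each), with adjusted p = 0.958 and 0.830 (edgeR). With 100 µM SC-514 it fell to 6.74 ± 2.39 CPM with IL-1β, against 13.8 ± 3.51 CPM at 0 µM, a log2 change of -1.03 (adjusted p = 0.00731), and to 3.72 ± 1.65 CPM with TNF-α, against 11.0 ± 1.92 CPM, a log2 change of -1.64 (adjusted p = 0.000146). The median level over the 162 deeper libraries was 2.82 CPM for Csf1r, 0 for Csf2ra (43 counts in the whole table), 1.70 CPM for Csf2rb2 and 2.07 CPM for Csf3r. Csf3r was highest, at 24.7 CPM, in the library with the most genes detected (IL-1β and 100 µM at 360 min, numbered 1) and next, at 16.6 CPM, in the library numbered 1 with IL-1β and 100 µM at 120 min.

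Of 10 related growth factor genes, 7 were in the table and 3 passed the filter. Lif, which encodes a cytokine of the IL-6 family, rose to 457 ± 45.5 CPM with IL-1β and 723 ± 15.2 CPM with TNF-α at 60 min, against 42.1 ± 11.3 CPM in unstimulated cells (log2 change 3.46 and 4.18, adjusted p = 2.09e-28 and 3.72e-36). Il11 rose to 29.0 ± 5.31 and 27.4 ± 10.9 CPM, against 11.0 ± 3.07 CPM (adjusted p = 0.000479 and 0.00072), and Kitl, which encodes stem cell factor, did not pass. With 100 µM SC-514 both Lif and Il11 fell under both labels at 60 min, Il11 by 2.77 and 2.04 and Lif by 0.96 and 0.91 on the log2 scale for IL-1β and TNF-α. Kitl rose with IL-1β (0.91, adjusted p = 4.14e-06). The median log2 change of the 3 genes was 1.42 and 1.41 with the stimuli, where the median of all tested genes was -0.0012 and 0.0033, and -0.96 and -0.91 with SC-514, where it was 0.0088 and 0.0074.

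Of 10 genes for RNA-binding proteins known to act on colony-stimulating factor or other AU-rich mRNAs, 9 passed the filter. At 60 min 6 of them rose with IL-1β and 5 under TNF-α and 0 fell. Of all genes, 2.74% were called higher and 0.622% lower with IL-1β, and 4.15% higher and 1.25% lower under TNF-α. None was lower at an unadjusted p under 0.05 either, and DESeq2 called 5 higher with IL-1β, 4 with TNF-α and 0 lower. The median log2 change was 0.37 with IL-1β and 0.23 under TNF-α. Zfp36, which encodes tristetraprolin, a protein that binds AU-rich elements and promotes mRNA decay, rose to 357 ± 46.6 CPM with IL-1β and 549.8 ± 24.2 CPM with TNF-α, against 24.2 ± 9.37 CPM (adjusted p = 1.13e-30 and 7.88e-38, edgeR). Zc3h12a, which encodes the endonuclease regnase-1, rose by 1.59 and 2.74 on the log2 scale. With 100 µM SC-514, 6 of the 9 fell and 1 rose under each label, and the medians were -0.22 and -0.26. DESeq2 called only 3 lower with IL-1β and 4 under TNF-α, and 1 higher under each. Hnrnpd, which encodes AUF1, fell by 0.71 with IL-1β and by 0.72 with TNF-α, and Zfp36l2 fell by 0.71 and by 0.75. With SC-514 at 60 min, 14.4% of all genes were called lower and 11.5% higher under IL-1β, and 13.6% lower and 8.32% higher under TNF-α.

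All 20 genes for transcription factors with known sites in these promoters passed the filter. At 60 min 11 rose with IL-1β and 13 under TNF-α and 0 fell, with medians of 0.49 and 0.68 on the log2 scale. The shares of all genes called higher were the 2.74% and 4.15% given above. DESeq2 called 10 and 12 higher and 0 lower, and 0 were lower at an unadjusted p under 0.05. Junb, an AP-1 subunit gene, rose to 420.0 ± 5.52 CPM with IL-1β and 643 ± 28.5 CPM with TNF-α, against 88.5 ± 10.2 CPM, and Jun by 1.68 and 2.74 on the log2 scale. With 100 µM SC-514, 7 fell and 6 rose with IL-1β, and 8 fell and 4 rose with TNF-α, with medians of -0.12 and -0.17. DESeq2 called 5 lower and 5 higher with IL-1β, and 5 lower and 3 higher under TNF-α. Of all genes 14.4% and 13.6% were lower and 11.5% and 8.32% higher. Among those that fell under both labels were Fosl1 (log2 change -1.25 and -1.30), Cebpd (-1.35 and -1.56), Ets1 (-0.81 and -0.97) and Cebpb (-0.54 and -0.72).

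The genes next to the 3 members in the genome were looked at for shared change. Of the 18 nearest genes in the table, 3 on each side of each member, 9 passed the filter. The 18 lay 962 to 223030 bases from their member. At 60 min 0 of the 9 were called with IL-1β, where 2.74% of all genes were called higher and 0.622% lower. Only Thra, near Csf3, was called with TNF-α (log2 change -0.42, adjusted p = 0.0115, edgeR), where 4.15% were called higher and 1.25% lower. At 120 min 0 were called with IL-1β, where 8.17% of all genes were called higher and 4.36% lower. Only P4ha2, near Csf2, was called with TNF-α (0.38, adjusted p = 0.000795), where 9.14% were called higher and 5.11% lower. With IL-1β 0 of the 9 passed at an unadjusted p under 0.05 at 60 min, and 1 higher and 1 lower did at 120 min, while DESeq2 called 0 at both times. With 100 µM SC-514 at 60 min, 3 of the 9 fell and 1 rose with IL-1β, and 2 fell and 1 rose under TNF-α, where 14.4% and 13.6% of all genes were called lower and 11.5% and 8.32% higher. DESeq2 called 2 lower with IL-1β and 1 under TNF-α, and 1 higher under each. Among them, P4ha2 fell by 0.52 with IL-1β and by 0.39 with TNF-α, and Fnip1, on the other side of Csf2, rose by 0.55 and 0.33. These 2 genes lie 115606 and 188532 bases from Csf2, and the genes nearer to it did not pass the filter. Med24, 962 bases from Csf3, fell by 0.45 with TNF-α (adjusted p = 0.0129, edgeR) and was not called with IL-1β (-0.21, adjusted p = 0.298).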

How the data were processed

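Polyadenylated RNA of 3T3 fibroblasts was read by TagSeq. The authors deposited raw read counts for each gene in a single table (22070 genes, 164 libraries, each with 4 sample records), and all columns were used. Per the submitters' processing notes, reads were aligned with Bowtie2 to GRCm38 (mm10). Which tool counted the reads, on which strand and with which annotation is not given in the sources used here. Of the gene identifiers, 21858 matched a symbol and 212 did not. Libraries were grouped by stimulus, SC-514 dose and time from the labels. The counts were fitted in edgeR 4.0.16 under R 4.3.3 (TMM factors, 0.934 to 1.08 outside the shallow libraries; filtering by group, which kept 10766 genes and the 3 members; robust quasi-likelihood fit of 41 group terms, 123 residual degrees of freedom) in 32 comparisons. Adjusted p-values are Benjamini-Hochberg over all tested genes within a comparison, at 0.05. The SE of a log2 change is a Wald SE from the same fit. CPM is a count over its library total, on the usual CPM scale. Exact permutation tests and exact count ratios used SciPy 1.17.1, and DESeq2 1.42.0 was an alternative. The test was tried on simulated data with known changes. Intervals from counts cover counting error only.

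The genes named are the 3 members, for each the 5 genes of most similar pattern that average 5 CPM or more in some group, the 3 nearest genes in the table on each side, every receptor gene, and up to 4 genes with the smallest adjusted p of each list. The members and lists were chosen with earlier results of these data known. Libraries of the same number were not treated as pairs: in 0 of 26 comparisons did every pair correlate above 0.1 (mean r 0.0263 for same numbers, -0.00876 for others). The highest mean for same numbers, 0.112 against -0.0372 for others, was that of 100 against 0 µM SC-514 with TNF-α at 120 min. Whether the numbers share a weak common part was not tested. Alternatives were RLE scaling, no filter on low counts, DESeq2, leaving out each library number or the shallow libraries, a term for library number, and a pseudocount of 1 for the ratios. Promoter sequences are RefSeq's, and 3′ UTRs are GENCODE's on GRCm38.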

Additional observations from a re-analysis of the deposited data

Results flagged for a closer look

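In groups of 4 libraries, a library was picked out where its gap to the nearest other passed Dixon's 95% critical value, which chance gives in about 1 group in 20. Of 101 groups of a gene, 8 held such a library. For Csf1 these were the 628.7 CPM library with IL-1β and 50 µM at 15 min (nearest other, 532.5 CPM) and the 781 CPM library with TNF-α and 50 µM at 120 min (nearest, 1046 CPM), which is the shallow library of 3839 counts. For Csf2 that shallow library was the highest of its group at 260.5 CPM, from 1 count (nearest, 35.8 CPM). Csf2 also had a high unstimulated library at 1.70 CPM (nearest, 0.844 CPM), a library at 0 CPM with IL-1β and 0 µM at 15 min (nearest, 2.43 CPM) and a low library at 1.54 CPM with TNF-α and 100 µM at 30 min (nearest, 6.54 CPM). For Csf3 these were a low library at 1.58 CPM with IL-1β and 0 µM at 360 min (nearest, 3.07 CPM) and a high library at 34.2 CPM with TNF-α and 25 µM at 120 min (nearest, 21.6 CPM). The libraries at 1.70, 0 and 1.54 CPM for Csf2 and at 1.58 CPM for Csf3 held fewer than 3 counts of the gene. At such counts values move in steps of single counts, and Dixon's value does not allow for that. A difference between stimulus labels in the effect of 100 µM SC-514 was called for Csf1 (adjusted p = 0.0155, edgeR F test over the 5 times), with the losses of that call given above.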

How the results depend on the processing

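Of 99 results on the 3 genes, 83 kept their side of the threshold in every alternative run, and no called change turned its direction. Leaving out the shallow libraries changed 0 of these calls. Adding a replicate block for the library number changed 0 of 87 calls, with Csf2 at 60 min at 7.06 (IL-1β over unstimulated), and raised the number of genes called by at most 1.40 times. RLE scaling moved Csf1 to 0.24 (TNF-α at 360 min over unstimulated, call lost), 0.23 (SC-514 with IL-1β at 360 min, call gained) and 0.24 (SC-514 with TNF-α at 15 min, call gained), and its label difference to an adjusted p of 0.0709. DESeq2 gave 0.24 for Csf1 with TNF-α at 360 min and an adjusted p of 0.0717 for Csf3 with SC-514 and IL-1β at 360 min, both calls lost, and no adjusted p for 6 results. Without a filter on low counts the 25 µM tests of Csf2 reached adjusted p = 0.0108 (IL-1β) and 0.00235 (TNF-α). The causes were not tested.

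Leaving out each library number in turn gave these ranges. For the log2 change of Csf1 they were 0.24 to 0.36 (TNF-α at 360 min over unstimulated), 0.10 to 0.29 (SC-514, TNF-α, 15 min), -0.33 to -0.22 (IL-1β over TNF-α, 60 min) and -0.34 to -0.28 (IL-1β, 360 over 120 min), and for Csf2 with SC-514 and IL-1β -2.17 to -1.06 at 30 min and -0.61 to -0.17 at 120 min. For adjusted p they were, for Csf3, 0.0127 to 0.0589 (IL-1β at 360 min over unstimulated), 0.0382 to 0.141 (SC-514, IL-1β, 360 min), 0.0132 to 0.147 (SC-514, TNF-α, 360 min) and 0.00253 to 0.0872 (IL-1β over TNF-α, 60 min). They were 0.00157 to 0.0991 for Csf2 at 50 µM with IL-1β, and for Csf1 0.0468 to 0.300 at 50 µM with TNF-α and 0.0125 to 0.466 for the label difference in the SC-514 effect.

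Counts of called genes over unstimulated moved more than those of the members. Without the filter they were 141 (18 with it) for IL-1β at 15 min, 272 (103) for IL-1β at 30 min, 270 (20) for TNF-α at 15 min and 187 (71) for TNF-α at 30 min. With DESeq2 they were 10, 60 and 230 (18, 103 and 362 with edgeR) for IL-1β at 15, 30 and 60 min, 385 (584) for TNF-α at 360 min and 59 (136) for IL-1β over TNF-α at 60 min. Leaving out a library number gave 1 to 10, 44 to 82, 228 to 278 and 854 to 1054 genes (18, 103, 362 and 1349 with all) for IL-1β at 15, 30, 60 and 120 min, and 3 to 32, 46 to 95, 380 to 464 and 292 to 457 (20, 71, 582 and 584) for TNF-α at 15, 30, 60 and 360 min. It gave 1615 to 2025 (2424) for SC-514 with IL-1β at 30 min, 58 to 102 (136) and 660 to 755 (1019) for IL-1β over TNF-α at 60 and 360 min, 231 to 352 (504) for the label difference, and 593 to 763 (1011) and 833 to 992 (1268) for 360 over 120 min with IL-1β and TNF-α. Depth limits Csf3: a group with 3 counts or fewer in all, as at 15 and 30 min, shows only that its level was low there.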
